A study of Mus musculus with 6 samples.

Results

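The genes described here are 38 genes of the cell division cycle: 14 of DNA replication (Ccne1, Ccne2, Mcm2 to Mcm7, Pcna, Cdc6, Cdt1, Rrm1, Rrm2 and Tyms), 20 of mitosis and 4 transcription factors (E2f1, E2f2, Foxm1 and Mybl2). They were chosen by name and function, with earlier results of these data known. All 38 were found among the 53379 gene identifiers of the count tables. RNA-seq was done on Min6, a line from a mouse insulinoma that stands in for pancreatic beta cells and, unlike most of those in the adult, divides in culture. The cells were transduced with lentiCRISPR v2, a lentiviral vector that carries Cas9 and a guide RNA (gRNA). The control group received a gRNA to the Rosa26 locus (3 libraries), and the other group a gRNA to JunD (3 libraries), a subunit of the AP-1 transcription factor. Both groups were grown in high-glucose medium, were at passage 28, and were collected 8 days after transduction following 30 hours of glucolipotoxic stress, so that all 6 libraries share the vector, the nuclease and the stress. The labels do not say whether the cells were selected or cloned, how many guides were used, or whether the libraries came from separate transductions. The p-values therefore measure the spread between these libraries, which may be technical.

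As background, entry into S phase is driven by the E2F family, whose target genes encode the licensing factors Cdc6 and Cdt1, the MCM helicase and the enzymes of nucleotide supply. Mitotic genes are transcribed later in the cycle, when the MuvB complex, the core of the repressive DREAM complex, joins the product of Mybl2 and then that of Foxm1. MuvB binds a promoter element called the cell cycle genes homology region (CHR), often near a CCAAT box bound by NF-Y. The AP-1 family, to which JunD belongs, is known for its part in growth control, and cell division is one way in which beta cell mass is maintained.

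Promoter letters differed between the replication and mitotic genes, and 6 stretches are shown because they carry these elements. Each is the 160 bases before the RefSeq start site on GRCm38.p6, written 5′ to 3′ on the gene's strand, and capitals mark E2F, CHR and CCAAT letters on either strand. The letters searched, on both strands, were TTTGGCGC, TTTGCCGC, TTTCGCGC and TTTCCCGC for E2F, TTTGAA for the CHR, and CCAAT. The intervals are chr4:118437344-118437503 (minus strand) for Cdc20, chr7:135716380-135716539 (minus) for Mki67, chr19:37376222-37376381 (plus) for Kif11, chr10:69352913-69353072 (minus) for Cdk1, chr8:75109349-75109508 (plus) for Mcm5 and chr1:128359706-128359865 (minus) for Mcm6.
Cdc20: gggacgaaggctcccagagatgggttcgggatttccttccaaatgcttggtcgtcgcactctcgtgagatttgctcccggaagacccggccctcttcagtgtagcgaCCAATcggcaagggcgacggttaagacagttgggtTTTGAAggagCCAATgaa
Mki67: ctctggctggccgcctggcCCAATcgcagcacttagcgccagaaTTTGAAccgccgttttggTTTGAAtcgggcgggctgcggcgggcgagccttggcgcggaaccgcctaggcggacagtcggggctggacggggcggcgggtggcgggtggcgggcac
Kif11: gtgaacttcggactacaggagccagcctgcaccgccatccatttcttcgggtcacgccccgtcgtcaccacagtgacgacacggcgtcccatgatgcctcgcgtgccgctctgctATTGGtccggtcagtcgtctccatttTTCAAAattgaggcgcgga
Cdk1: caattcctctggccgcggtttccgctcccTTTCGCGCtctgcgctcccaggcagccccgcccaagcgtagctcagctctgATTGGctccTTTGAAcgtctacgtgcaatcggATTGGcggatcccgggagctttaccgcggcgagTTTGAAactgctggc
Mcm5: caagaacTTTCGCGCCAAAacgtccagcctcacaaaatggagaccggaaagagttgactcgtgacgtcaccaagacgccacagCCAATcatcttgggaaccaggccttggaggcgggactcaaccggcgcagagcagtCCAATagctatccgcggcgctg
Mcm6: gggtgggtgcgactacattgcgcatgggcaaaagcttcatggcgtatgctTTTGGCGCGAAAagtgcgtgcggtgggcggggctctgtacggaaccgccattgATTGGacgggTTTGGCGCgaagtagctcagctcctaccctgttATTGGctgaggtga
In Cdc20, which encodes an activator of the anaphase-promoting complex, the CHR letters lie 18 to 13 bases before the start with CCAAT on both sides. In Mki67, which encodes the proliferation marker Ki-67, there are 2 CHR matches, and in Kif11, a spindle motor gene, 1 lies on the opposite strand. Cdk1 encodes the mitotic kinase and holds both E2F and CHR letters. Mcm5 and Mcm6, which encode helicase subunits, hold E2F letters and no CHR letters here, and in each gene 2 E2F matches on opposite strands overlap.

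A RefSeq window of 300 bases, 250 before the start and 50 after it, was present for 31 of the 38 genes. E2F letters occurred in 6 of 12 replication genes (Cdc6, Cdt1, Mcm3, Mcm5, Mcm6 and Mcm7) and in 1 of 16 mitotic genes (Cdk1), against 2.605% of 27025 genes with a window. CHR letters occurred in 11 of 16 mitotic genes and in 1 of 12 replication genes (Mcm2), against 20.23% of all. CCAAT letters were in 14 of 16 mitotic and 8 of 12 replication genes, against 41.06% of all. The wider lists described further on showed the same contrast. Among 41 other replication genes 13 held E2F and 8 held CHR letters, and among 52 other mitosis genes 5 held E2F and 33 held CHR letters. The AP-1 letters TGANTCA were in 0 of the 31 windows, against 8.973% of all. The cyclic AMP response element TGACGTCA, which AP-1 family dimers can also bind, was in 2 (Mcm5 and Cenpe), against 2.031% of all. A match is a description of letters, and its absence says only that these letters are not in this window.

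The libraries held 41071566 to 50024931 gene counts, and the lowest count of any of the 38 genes was 1258, so counting error was small. Levels are in CPM, the read count scaled to a fixed library total, here after TMM adjustment of the totals. Rosa26 gRNA replicate 1 stood apart from the other libraries, which was known from earlier results of these data. Fold changes are given with it (6 libraries) and without it (5 libraries). The 5-library fit was thus chosen with the data known. With 5 libraries 5 of 12 beta cell markers were called higher in the JunD gRNA libraries (Pdx1, Mafa, Nkx6-1, Slc2a2 and Ins2). Another 2 were called lower (Iapp and Pcsk1), against 1.45% and 1.40% of all genes called higher and lower. With 6 libraries 0 of the 12 were called. Mafa and Pdx1, beta cell transcription factors, had log2 fold changes of 0.47 and 0.37 with 5 libraries. Both were beyond those of any of the 38 cell cycle genes in that fit. Iapp, Ins2 and Pcsk1 did not pass in DESeq2 on 5 libraries (adjusted p = 0.157, 0.176 and 0.0543). After correction for GC content and length Ins2 passed (edgeR adjusted p = 0.0169), and Iapp and Pcsk1 did not (0.661 and 0.76). Pdx1, Mafa, Nkx6-1 and Slc2a2 passed in both. The 12 markers were all above 1 CPM. Their summed level was 43762 to 79688 CPM in the Rosa26 gRNA libraries and 77562 to 84153 CPM in the JunD gRNA libraries. Ins2 was at 21525 CPM in Rosa26 gRNA replicate 1, against 45851 and 49443 CPM in the other controls. Of 20 markers of other cell types 13 stayed under 1 CPM in all libraries, with the macrophage gene Adgre1, the fibroblast gene Col3a1 and the acinar gene Prss2 at 0, and the summed level was 532 to 734 against 687 to 712 CPM. The hormone gene Ppy, 1 of the other 7, was called lower with 5 libraries (log2 fold change -0.70). The part of these marker differences in the results below was not tested. Jund itself stood at 38.5, 34.5 and 30.6 CPM with the Rosa26 gRNA and at 22.7, 25.1 and 27.2 CPM with the JunD gRNA. Its log2 fold change was -0.47 with 6 libraries (edgeR quasi-likelihood test, Benjamini-Hochberg adjusted p = 0.417) and -0.38 with 5 (adjusted p = 0.00773), and its RNA was present in every library.

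The cell cycle genes differed little between the 2 guide RNAs. With 6 libraries, edgeR's quasi-likelihood test called 0 of the 38 genes at an adjusted p under 0.05, where it called 0 of 17767 genes in all (0%). DESeq2 and limma-voom also called 0 of the 38. An unadjusted p under 0.05 was reached by 6 of the 38, near the 11.9% of all genes. With 5 libraries, 1 gene was called higher in the JunD gRNA libraries, Cdc20, and 0 were called lower, against 1.45% and 1.40% of 18296 genes (2.86% either way). An unadjusted p under 0.05 was then reached by 12 of the 38, against 15.9% of all genes. The median log2 fold change over the 38 genes was 0.07 with 6 libraries and 0.03 with 5, beside -0.01 and -0.003 for all genes. It was positive in 24 of the 38 in both fits, where 48.9% and 49.2% of all genes were positive.

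**Figure D1:**
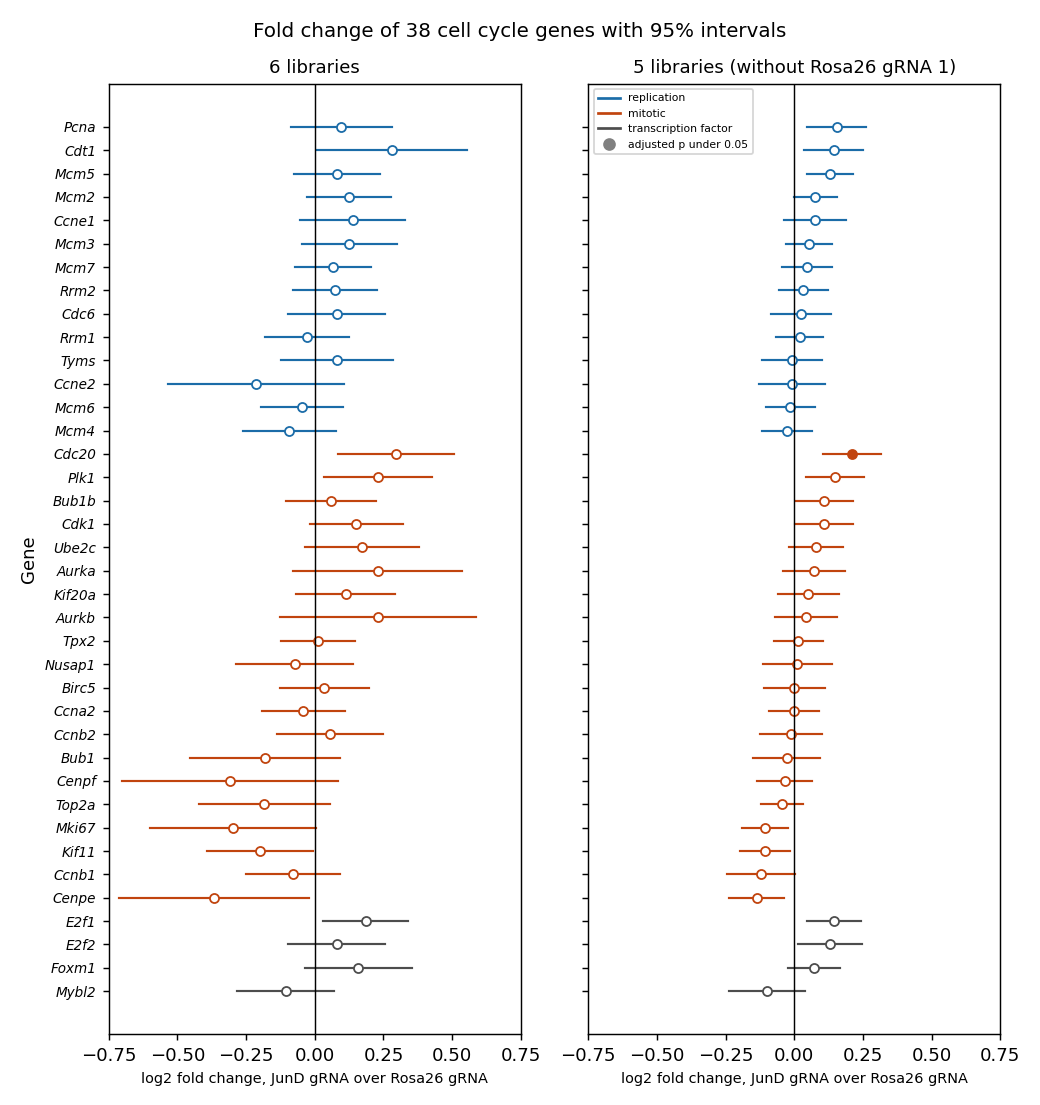
Log2 fold change, JunD gRNA over Rosa26 gRNA, of the 38 genes (points) with 95% intervals (lines) from edgeR, with 6 libraries on the left and 5 on the right. The filled point is Cdc20, the 1 gene with an adjusted p under 0.05, and in the right panel all 38 intervals lie inside 1.3-fold.

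The intervals bound what could have gone undetected, as the plot of fold changes shows. With 5 libraries the 95% interval of each of the 38 genes lay inside 1.3-fold in either direction, and that of 14 inside 1.1-fold. With 6 libraries 25 lay inside 1.3-fold and 35 inside 1.5-fold. The 3 that did not were Mki67, Cenpe and Cenpf, all far higher in Rosa26 gRNA replicate 1 than in any other library. These intervals are for single genes and are not adjusted for their number, nor for the choice to leave out a library.

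In 9 of the 38 genes every JunD gRNA library lay above every Rosa26 gRNA library (Mcm2, Mcm3, Mcm7, Cdt1, Plk1, Cdc20, Ube2c, E2f1 and Foxm1), and 4 lay below (Mki67, Cenpe, Kif11 and Mybl2). The same held for 12.9% and 11.9% of all genes. With 5 libraries the numbers were 13 and 5, against 16.9% and 16.6% of all genes, and the additions were Mcm5, Pcna, Bub1b and E2f2 above and Ccnb1 below.

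**Figure D2:**
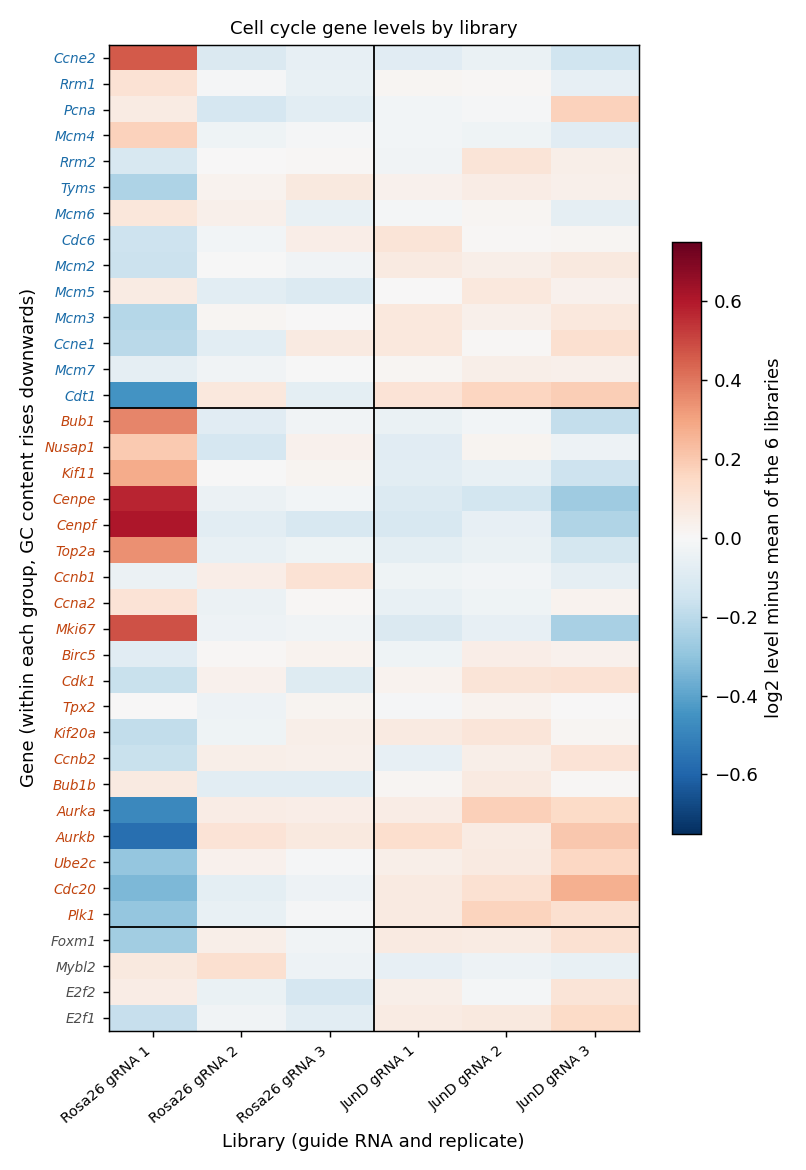
Log2 level of each gene in each library minus the mean of the 6 libraries, with red above and blue below that mean; columns are libraries, and rows are genes grouped into replication (top), mitotic (middle) and transcription factor genes (bottom), with GC content rising downwards within a group. Rosa26 gRNA replicate 1 has the deepest colours, red in Cenpf, Cenpe, Mki67 and Ccne2 and blue in Aurkb, Aurka and Cdt1.

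Among the transcription factors, E2f1, an activator of S phase genes, was at 92.3, 102 and 98.8 CPM with the Rosa26 gRNA and at 109, 109.8 and 115 CPM with the JunD gRNA. All 3 JunD gRNA libraries were above the controls. The log2 fold change of E2f1 was 0.19 ± 0.07 (SE) with 6 libraries (edgeR adjusted p = 0.417) and 0.15 ± 0.05 with 5 (0.097), which missed the threshold. After correction for GC content and length it was 0.02 with 6 libraries and 0.08 with 5. E2f2, a relative of E2f1, was at 57.4, 53.2 and 50.5 against 56.7, 54.5 and 59.0 CPM. Its groups overlapped through Rosa26 gRNA replicate 1, and its log2 fold change was 0.08 with 6 libraries and 0.13 with 5. Foxm1, an activator of mitotic genes, was at 95.4, 118 and 113 against 119.97, 119.7 and 124 CPM. Its groups did not overlap, but the second control was within 2 CPM of the lowest JunD gRNA library (log2 fold change 0.16 and 0.07). Mybl2, which encodes the MuvB partner B-Myb, was at 33.3, 34.5 and 30.8 against 30.3, 30.8 and 30.5 CPM. The groups of Mybl2 barely missed each other, with the third control at 30.85 CPM and the second JunD gRNA library at 30.82 CPM. Mybl2 was the factor with a negative log2 fold change, -0.11 ± 0.08 (SE) with 6 libraries and -0.10 ± 0.07 with 5. None of the 4 passed the test in either fit.

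In the licensing group, Cdt1 and Cdc6 load the MCM helicase onto origins. Cdt1 was at 67.7, 97.8 and 87.9 CPM with the Rosa26 gRNA and at 99.2, 104 and 105 CPM with the JunD gRNA. The lowest library was Rosa26 gRNA replicate 1, and the difference on the log2 scale, 0.28 ± 0.12 (SE) with 6 libraries, was 0.14 ± 0.05 without it (adjusted p = 0.142). Cdc6 was at 56.6, 62.1 and 65.2 against 67.4, 63.4 and 63.6 CPM, so its groups overlapped (log2 fold change 0.08 with 6 libraries and 0.03 with 5).

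The 6 helicase subunits Mcm2 to Mcm7 form 1 ring, and their differences were small and of both signs. Mcm2 was at 269.8, 302 and 297 CPM with the Rosa26 gRNA and at 317, 312 and 318 CPM with the JunD gRNA, and Mcm3 at 155, 182 and 181 against 191, 185 and 190.4 CPM. Mcm7 was at 111, 114 and 116 against 118, 119.7 and 119.5 CPM. In these 3 genes the groups did not overlap, yet the log2 fold changes were only 0.12, 0.13 and 0.07 with 6 libraries and 0.08, 0.05 and 0.05 with 5. Mcm5 was at 246, 223 and 219 against 237, 249 and 241 CPM. Its control replicate 1 was within the JunD gRNA range, and its log2 fold change was 0.08 ± 0.07 (SE) with 6 libraries and 0.13 ± 0.04 with 5 (adjusted p = 0.0791). Mcm4 and Mcm6 had log2 fold changes of -0.09 and -0.05 with 6 libraries and -0.03 and -0.01 with 5, and both turned positive with 5 libraries after correction for GC content and length (0.02 and 0.02). None of the 6 subunits passed the uncorrected test.

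Cyclins E1 and E2 start S phase as partners of Cdk2. Ccne1 was at 58.7, 64.0 and 70.6 CPM with the Rosa26 gRNA and at 71.2, 68.0 and 73.5 CPM with the JunD gRNA, with a log2 fold change of 0.14 with 6 libraries and 0.08 with 5. Ccne2 was at 66.8, 45.1 and 46.6 against 45.8, 47.0 and 43.9 CPM. The high library of Ccne2 was Rosa26 gRNA replicate 1, and its difference on the log2 scale, -0.21 ± 0.14 (SE) with 6 libraries, was -0.01 ± 0.06 without it. Ccne2 has the lowest GC content of the 38 genes, 36.3% of its longest transcript.

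Pcna encodes the sliding clamp of DNA polymerase, and its gene (ENSMUSG00000027342.14) lies on chromosome 2 from 132249162 to 132253314 on the minus strand. It was at 147, 129 and 134 CPM with the Rosa26 gRNA and at 139, 140.3 and 159 CPM with the JunD gRNA. The groups overlapped with 6 libraries (log2 fold change 0.10 ± 0.08, SE, edgeR adjusted p = 0.575) and not with 5 (0.15 ± 0.05, adjusted p = 0.116). JunD gRNA replicate 3 was the highest library, and without it the difference was 0.03 ± 0.09 with 6 libraries and 0.09 ± 0.04 with 5 (adjusted p = 0.236). Rrm1 and Rrm2 encode the subunits of ribonucleotide reductase and Tyms thymidylate synthase, which supply deoxynucleotides. Rrm2 was at 167, 182 and 183 against 179, 194 and 188 CPM, Rrm1 at 212, 196 and 189.8 against 199, 199 and 189 CPM, and Tyms at 47.0, 56.1 and 58.0 against 56.5, 57.3 and 56.7 CPM. The groups overlapped in all 3, and their log2 fold changes were 0.07, -0.03 and 0.08 with 6 libraries and 0.03, 0.02 and -0.01 with 5.

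Among the mitotic genes, Cdc20 (ENSMUSG00000006398.15, chromosome 4 from 118432901 to 118437352, minus strand) had the largest positive difference of the 38. It was at 102, 122 and 125 CPM with the Rosa26 gRNA, a mean of 116 ± 12.5 (SD, n = 3). With the JunD gRNA it was at 135, 139 and 154 CPM, a mean of 142 ± 10.2 (SD, n = 3). Every JunD gRNA library was above every control, and the highest was JunD gRNA replicate 3. The log2 fold change was 0.30 ± 0.09 (SE) with 6 libraries (edgeR adjusted p = 0.417). With 5 libraries Cdc20 rose by 0.21 ± 0.05 on the log2 scale, a fold of 1.16 (95% interval 1.07 to 1.24, adjusted p = 0.0278). Over the alternatives to that fit the adjusted p ran from 0.000677 to 0.379. It was lost where 1 further control was left out (0.276 without replicate 2 and 0.379 without replicate 3), when the single remaining control is assumed to vary as the JunD gRNA libraries do. Without JunD gRNA replicate 3 the log2 fold change was 0.15 ± 0.04 and the adjusted p 0.0199. In bulk RNA, a larger share of cells in mitosis and more of this transcript per cell cannot be told apart.

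The other genes that act with Cdc20 at the exit from mitosis did not pass. Ube2c, the ubiquitin-conjugating enzyme of the anaphase-promoting complex, was at 91.2, 114 and 111 CPM with the Rosa26 gRNA and at 115, 117 and 124 CPM with the JunD gRNA. Its groups did not overlap, and its log2 fold change was 0.17 ± 0.09 (SE) with 6 libraries and 0.08 ± 0.05 with 5 (adjusted p = 0.449). Bub1b, which encodes the checkpoint protein BubR1 that restrains Cdc20, was at 74.7, 67.4 and 67.6 against 72.1, 74.6 and 71.8 CPM. Bub1, the related checkpoint kinase, was at 71.2, 52.0 and 54.2 against 53.3, 54.5 and 48.7 CPM. Both genes overlapped between groups with 6 libraries, and with 5 only Bub1 did. The log2 fold change of Bub1b was 0.06 with 6 libraries and 0.11 with 5, and that of Bub1 was -0.18 ± 0.12 (SE) with 6 libraries and -0.03 ± 0.06 with 5.

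The kinases of mitotic entry and the spindle lay on the positive side without passing. Plk1, a kinase of mitotic entry and spindle assembly, was at 58.9, 69.3 and 71.5 CPM with the Rosa26 gRNA and at 75.4, 80.9 and 78.1 CPM with the JunD gRNA. The groups did not overlap, and the log2 fold change was 0.23 ± 0.09 (SE) with 6 libraries and 0.15 ± 0.05 with 5 (adjusted p = 0.123). Cdk1 was at 83.3, 95.6 and 87.3 against 94.9, 99.8 and 101 CPM, with the groups overlapping by less than 1 CPM (log2 fold change 0.15 and 0.11). Aurka, the spindle pole kinase, was at 39.3, 57.3 and 57.1 against 57.2, 62.4 and 60.7 CPM, and Aurkb, the centromere kinase, at 36.6, 58.3 and 57.2 against 59.3, 56.7 and 62.4 CPM. In both Aurora genes Rosa26 gRNA replicate 1 was far below the rest, and their log2 fold changes of 0.23 and 0.23 with 6 libraries became 0.07 and 0.04 with 5.

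The cyclins that partner Cdk1 showed small differences. Ccna2 was at 151, 136 and 141 CPM with the Rosa26 gRNA and at 135, 138 and 143 CPM with the JunD gRNA, and Ccnb2 at 57.9, 67.1 and 66.8 against 62.4, 67.1 and 69.9 CPM. Their groups overlapped, and their log2 fold changes were -0.04 and 0.06 with 6 libraries and -0.001 and -0.01 with 5. Ccnb1 was at 39.5, 42.3 and 44.1 against 39.9, 40.3 and 39.0 CPM, and its log2 fold change was -0.08 ± 0.08 (SE) with 6 libraries and -0.12 ± 0.06 with 5 (adjusted p = 0.318).

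Mki67 (ENSMUSG00000031004.8, chromosome 7 from 135689784 to 135716361, minus strand) had the highest level per exon length of the 38. It was at 1197, 836 and 844 CPM with the Rosa26 gRNA and at 796, 822 and 725 CPM with the JunD gRNA. The JunD gRNA libraries were below all controls, but the other 2 controls were close to them. The log2 fold change was -0.30 ± 0.13 (SE) with 6 libraries (edgeR adjusted p = 0.419) and -0.11 ± 0.04 with 5 (0.178). Top2a, which encodes topoisomerase II alpha, was at 655, 498 and 507 against 491, 499 and 472 CPM, and its log2 fold change was -0.18 ± 0.11 with 6 libraries and -0.05 ± 0.04 with 5.

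The kinetochore and spindle genes gave the widest spread. Cenpe, a kinetochore motor, was at 199, 129.5 and 131 CPM with the Rosa26 gRNA and at 124, 122 and 111 CPM with the JunD gRNA. Cenpf, a kinetochore protein, was at 216, 134 and 130.3 against 130.3, 136 and 121 CPM. Kif11, the motor that separates spindle poles, was at 189, 156 and 159 against 148, 151 and 140.4 CPM. Rosa26 gRNA replicate 1 was the highest library in all 3, and the log2 fold changes of -0.37, -0.31 and -0.20 with 6 libraries became -0.14, -0.03 and -0.11 with 5. Cenpe and Kif11 did not overlap between groups, and neither passed (5 libraries, adjusted p = 0.139 and 0.218). Kif20a and Nusap1, of the late spindle, Tpx2, an activator of Aurora A, and Birc5, a partner of Aurora B, all overlapped between groups. Their log2 fold changes were 0.11, -0.07, 0.01 and 0.03 with 6 libraries and, with 5, 0.05, 0.01, 0.01 and 0.00045, and Tpx2 was the steadiest of the 4, at 143 to 149.6 CPM in the 6 libraries.

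Set against each other, the replication genes had slightly higher fold changes than the mitotic genes. The median log2 fold change was 0.08 for the 14 replication genes and 0.02 for the 20 mitotic genes with 6 libraries, and 0.04 and 0.01 with 5. It was positive in 10 of 14 and in 11 of 20 in both fits. The mean log2 CPM of the replication genes was 6.90, 6.93 and 6.93 in the Rosa26 gRNA libraries and 6.97, 6.98 and 6.98 in the JunD gRNA libraries. The groups did not overlap, and the means differed by 0.06 on the log2 scale (0.04 with scaling to total counts). The mean of the mitotic genes was 6.68, 6.64 and 6.66 against 6.64, 6.69 and 6.66, and there the groups overlapped. The mitotic mean minus the replication mean was -0.221, -0.286 and -0.27 with the Rosa26 gRNA and -0.328, -0.294 and -0.325 with the JunD gRNA, so that every JunD gRNA library was lower. The second control and the second JunD gRNA library were close together. The genes were chosen with earlier results of these data known, so these means carry no test. The other 4 genes, the transcription factors, had a median of 0.12 with 6 libraries and 0.10 with 5. After correction for GC content and length their median was 0.002 with 6 libraries, with 2 positive and 2 negative. With 5 libraries it was then 0.07, with 3 positive and 1 negative.

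**Figure D3:**
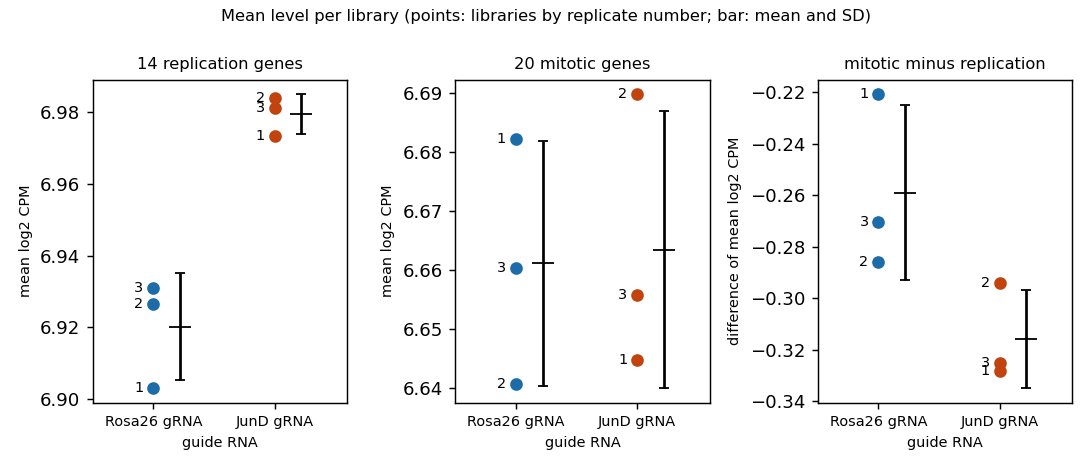
Mean log2 CPM of the 14 replication genes (left), of the 20 mitotic genes (middle), and the mitotic mean minus the replication mean (right), 1 point per library numbered by replicate, with bars for the mean and SD of 3 libraries; the axes do not start at 0. The replication means separate the groups (6.90 to 6.93 against 6.97 to 6.98), and the mitotic means overlap.

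The share of all counts taken by the 38 genes was 0.592%, 0.523% and 0.519% in the Rosa26 gRNA libraries and 0.521%, 0.535% and 0.516% in the JunD gRNA libraries. Rosa26 gRNA replicate 1 was the highest, through the mitotic genes at 0.364% of its counts against 0.28% to 0.298% in the other 5 libraries. The replication genes made up 0.195% to 0.199% of the counts in the control libraries and 0.202% to 0.206% in the JunD gRNA libraries.

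Base composition moved with these differences. Across the 38 genes, measured in the same libraries, the log2 fold change had a Spearman correlation of 0.75 with the GC content of the longest transcript with 6 libraries and of 0.67 with 5. With exon length the values were -0.55 and -0.50. The deviation of Rosa26 gRNA replicate 1 from the other 2 controls ran from -0.65 (Aurkb) to 0.71 (Cenpf) on the log2 scale, and its correlation with GC content was -0.67. The 3 genes furthest below 0 with 6 libraries, Cenpe, Cenpf and Mki67, have 42.9% to 46.6% GC and 8.62 to 15.4 kb of exons. The 3 furthest above 0, Cdc20, Cdt1 and Plk1, have 55.6% to 57.8% GC and 1.87 to 3.14 kb. The part of GC content and length in each gene's difference was not tested apart from the correction described next.

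A per-library correction for GC content and transcript length was fitted across all genes. It brought the correlation of fold change with GC content to 0.21 in both fits. The correlation with exon length was then -0.36 with 6 libraries and -0.27 with 5, so a trend with length remained. With 5 libraries the corrected fit called 3 of the 38 genes higher, Pcna, Mcm5 and Cdc20, and 0 lower. Of all 18296 genes it called 366 higher and 210 lower (3.15% either way). Pcna rose by 0.20 ± 0.05 (SE) on the log2 scale (edgeR adjusted p = 0.0194), Mcm5 by 0.13 ± 0.04 (0.0283) and Cdc20 by 0.17 ± 0.04 (0.0194). The corrected fit was not repeated with libraries left out, and the uncorrected value of Pcna was 0.15 with all 5 and 0.09 without JunD gRNA replicate 3. The values of Mki67, Cenpe and Kif11 were then -0.03, -0.03 and -0.02. All 14 replication genes and 16 of 20 mitotic genes were positive, and so were 10271 of all 18296 genes. The median was 0.07 for replication, 0.05 for mitotic and 0.02 for all genes. With 6 libraries the corrected fit called 0 of the 38, where it called 11 higher and 14 lower of all 17767 genes. In that fit 28 of the 38 were positive, and so were 9137 of all 17767 genes.

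**Figure D4:**
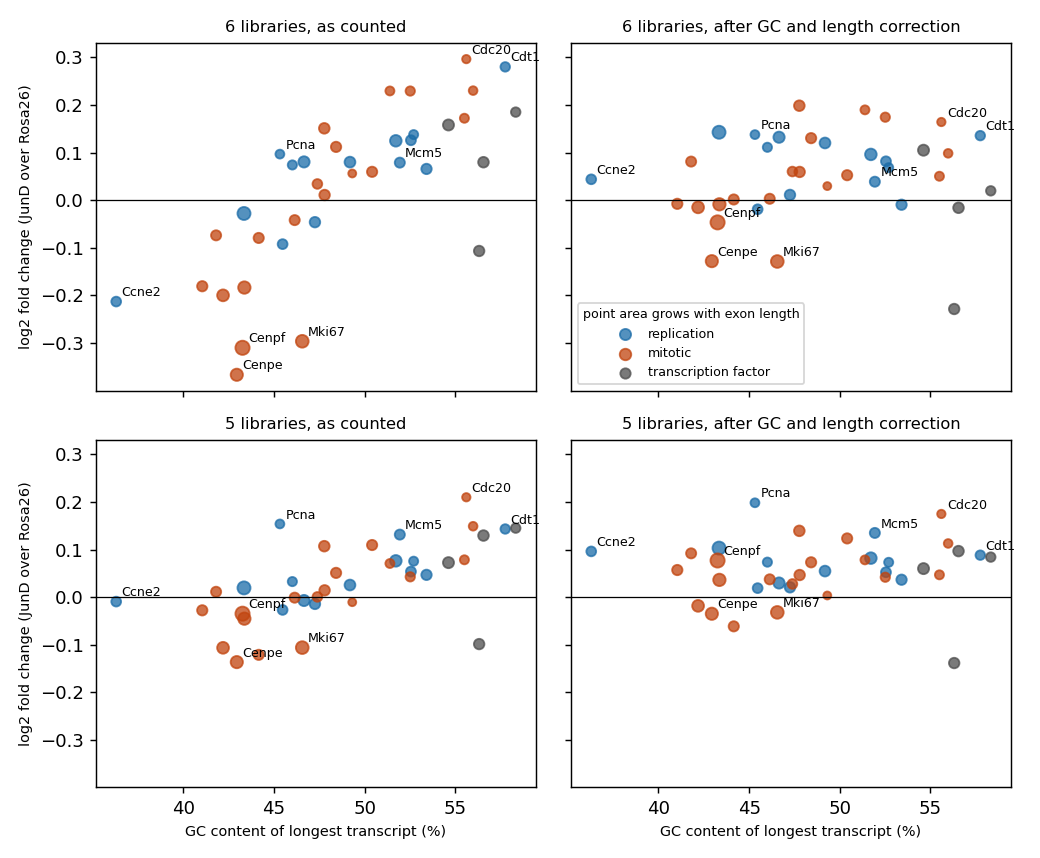
Log2 fold change of the 38 genes (y axis) against the GC content of the longest transcript in percent (x axis), with 6 libraries above and 5 below, as counted on the left and after correction on the right; point area grows with exon length. As counted, fold change rises with GC content (Spearman 0.75 and 0.67), and after correction the correlation is 0.21 in both.

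Levels can be compared between genes only per length. In CPM per kilobase of exon, as the median of the 6 libraries, Mki67 was highest at 82.4, then Cdc20 at 69.4, Rrm2 at 65.9, Mcm5 at 59.8, Pcna at 58.2 and Top2a at 55.3. The ranges over the 6 libraries overlapped between each of these genes and the next in order, as the plot of levels per length shows. The helicase subunits are present once each in the ring, while their RNA levels ran from 26.4 for Mcm7 through 33.4 for Mcm4, 42.6 for Mcm6, 44.1 for Mcm2 and 49.0 for Mcm3 to 59.8 for Mcm5. The ranges over libraries overlapped among Mcm6, Mcm2 and Mcm3, and Mcm7, Mcm4 and Mcm5 lay apart from them and from each other. Mybl2 was lowest of the 38 at 6.66, below Cenpf at 8.56 and Tyms at 9.29. The exon length covers every annotated transcript, so genes with long and rarely used exons are set too low. It is 6956 bases for Mcm2, whose longest transcript has 3494, and 9013 for Top2a, whose longest has 5221. For Mki67 and Mcm4 both lengths are equal, at 10061 and 3589 bases. The first place of Mki67 and the order of the helicase subunits therefore hold for exon length. Per length of the longest transcript they would differ.

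**Figure D5:**
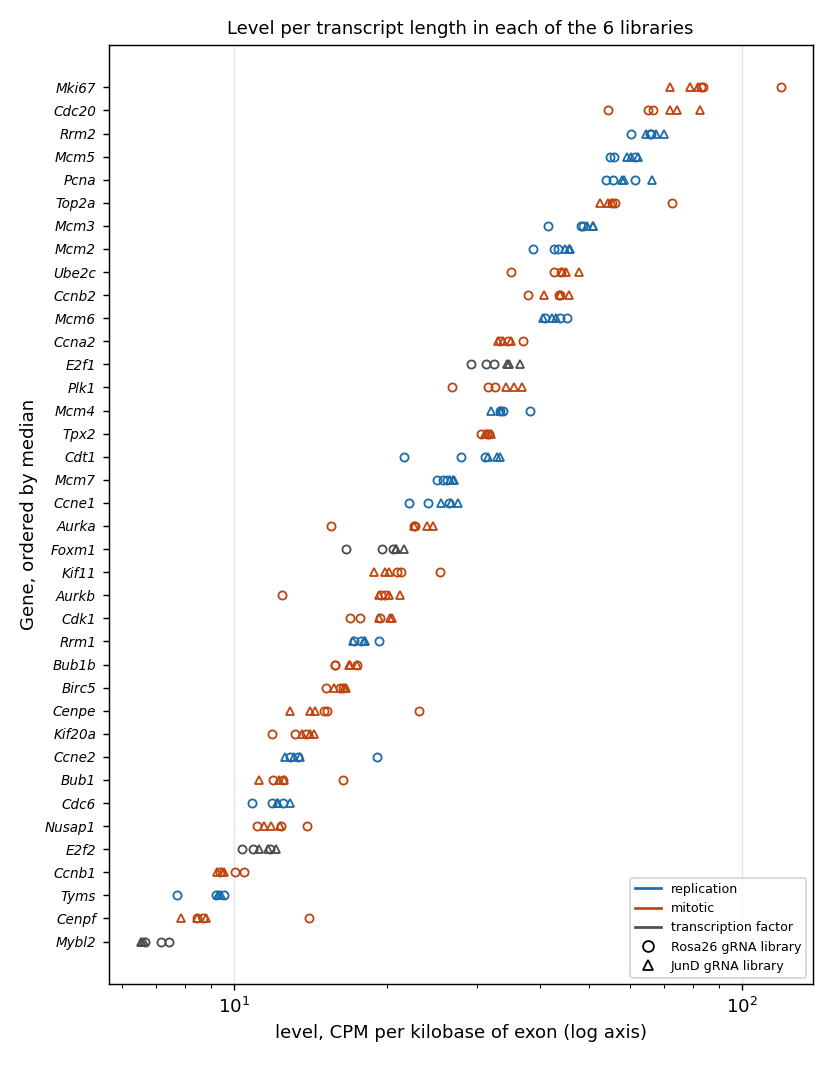
Level of each gene in each library in CPM per kilobase of exon (log axis), with genes ordered by their median and circles for Rosa26 gRNA and triangles for JunD gRNA libraries. Medians run from 82.4 (Mki67) to 6.66 (Mybl2), and circles far from the rest, as in Mki67, Cenpf and Aurkb, are Rosa26 gRNA replicate 1.

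Some of the genes share sequence or position with others, and neither the strand setting nor the handling of multi-mapping reads is given in the sources used here. The processed pseudogene Pcna-ps2 was counted at 140 to 167 CPM, as high as Pcna, with a log2 fold change of -0.06 with 6 libraries and 0.01 with 5. It was lowest, and Pcna highest, in JunD gRNA replicate 3. The summed level of Pcna and Pcna-ps2 averaged 288 ± 22.5 CPM over the control libraries and 291 ± 6.76 CPM over the others (SD, n = 3 each), so the level of Pcna alone is uncertain. Ccnb1-ps was counted at 62.7 to 68.5 CPM, above Ccnb1, and the sums were 106 ± 2.90 and 106 ± 2.09 CPM. Cdc20 shares 53 exon bases with Elovl1 on the opposite strand, and Elovl1 had a log2 fold change of 0.09 with 6 libraries and -0.07 with 5 (edgeR adjusted p = 0.774 and 0.598). Ccne2, Mcm7, Ccna2, Nusap1 and Kif20a also overlap a counted gene on the opposite strand.

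Wider lists of the same pathways gave small differences too. With 6 libraries edgeR called 0 genes in any of them, as over all genes. An unadjusted p under 0.05 was reached by 4 of 52 other replication genes and 9 of 61 other mitosis genes. It was also reached by 1 of 19 E2F and DREAM genes and 5 of 15 G1 genes, against 11.9% of all genes. Of 52 other replication and nucleotide supply genes, 1 was called higher and 0 lower with 5 libraries, against 1.45% and 1.40% of all genes. It was Pold2, a subunit of DNA polymerase delta, at 67.9, 90.4 and 89.4 CPM with the Rosa26 gRNA and 99.9, 101 and 103 CPM with the JunD gRNA, and it rose by 0.17 ± 0.05 (SE) on the log2 scale (edgeR adjusted p = 0.0426). With 6 libraries its value was 0.30 (0.417). The call was lost after correction for GC content and length (0.11, adjusted p = 0.2), with upper-quartile scaling (0.0585) and without JunD gRNA replicate 2 (0.0736). Gins4, Pold3 and Fen1, the next by p, had log2 fold changes of 0.26, -0.15 and 0.25 with 6 libraries and 0.22, -0.16 and 0.29 with 5, and did not pass, while Gins4 passed after the correction (0.23, adjusted p = 0.0352). Of 61 other mitosis and cytokinesis genes, 1 was called higher and 0 lower, against the same 1.45% and 1.40% of all genes. It was Cdca3, at 43.6, 60.7 and 61.5 against 68.0, 69.5 and 78.0 CPM, and it rose by 0.23 ± 0.06 (adjusted p = 0.0302; 0.25 and 0.00825 after the correction), where its value with 6 libraries was 0.38 (0.417). Pimreg, Aspm and Prc1 had values of 0.31, -0.36 and -0.20 with 6 libraries and 0.22, -0.16 and -0.14 with 5 and did not pass. The medians of these 2 lists were 0.01 and -0.02 with 6 libraries and 0.03 and -0.004 with 5.

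Of 19 genes of the E2F, retinoblastoma and DREAM or MuvB families 0 were called with 5 libraries (edgeR), and 2 had an unadjusted p under 0.05. Over all genes the shares were 2.86% and 15.9%. E2f4, the E2F of the DREAM complex, had a log2 fold change of 0.11, Fbxo5, an inhibitor of the anaphase-promoting complex, 0.12, Mybl1 -0.13 and Rbl1, a retinoblastoma relative, -0.11, where the values with 6 libraries were 0.26, 0.09, -0.43 and -0.23. With 5 libraries 1.45% of all genes were called higher and 1.40% lower. Of 15 genes of G1 cyclins, their kinases, CDK inhibitors and menin, 3 were called higher and 0 lower in that fit. All 3 encode inhibitors of Cdk4 and Cdk6. Cdkn2c was at 316, 347 and 341 CPM with the Rosa26 gRNA and at 385, 389 and 440.4 CPM with the JunD gRNA, and rose by 0.23 ± 0.05 (SE) on the log2 scale (adjusted p = 0.00723). Cdkn2d was at 46.2, 56.8 and 58.1 against 64.6, 64.3 and 72.4 CPM and rose by 0.22 ± 0.06 (0.0362). Cdkn2a was at 94.7, 105 and 92.5 against 111, 111 and 124 CPM and rose by 0.22 ± 0.06 (0.0376). In all 3 the groups did not overlap with 6 libraries either, where the values were 0.27, 0.32 and 0.24 (adjusted p = 0.417 each). After correction for GC content and length Cdkn2c and Cdkn2d passed, and Cdkn2a did not (0.13, adjusted p = 0.117). Ccnd2, a cyclin D gene, had -0.002 with 6 libraries, 0.16 with 5 (adjusted p = 0.0823), and 0.22 with 5 after correction (0.0106). The 5 calls of this and the preceding paragraph, Pold2, Cdca3, Cdkn2c, Cdkn2d and Cdkn2a, were all lost when Rosa26 gRNA replicate 2 or 3 was also left out (adjusted p = 0.0621 to 0.691). The value of Cdkn2a was then 0.32 without replicate 2 and 0.13 without replicate 3.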

How the data were processed

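The authors deposited raw counts per gene, 1 table per library; TopHat2, featureCounts and mm10 are named in the submitters' processing notes, without versions. Not given in the sources used here: annotation release, strand setting and treatment of multi-mapping reads. The members and gene lists were chosen with earlier results of these data known. Symbols were matched for 53274 of 53379 identifiers, and coordinates, exon lengths and GC content came from GENCODE M21 (GRCm38, the assembly of mm10). Groups came from the gRNA labels. The test was edgeR 4.0.16 (R 4.3.3): TMM, filterByExpr, quasi-likelihood, group as the sole term, two-sided, Benjamini-Hochberg adjustment over all tested genes at 0.05, and tested on simulated data. SEs are approximate. Mean log2 CPM used a prior count of 2. Promoters came from RefSeq (GRCm38.p6). Alternatives were DESeq2 1.42.0, limma 3.58.1 voom, other factors, filters and weights, the replicate block, left-out libraries and a spline correction (5 degrees of freedom) for GC content and length. Every member could be named; from each other pathway list, the called genes and up to 4 with the smallest p were.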

Additional observations from a re-analysis of the deposited data

How the results depend on the processing

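No member was called lower under any setting run, and Cdc20 kept a positive value in all of them. With 6 libraries the number of members called higher was 0 to 1 with a library left out (1, Cdc20, without Rosa26 gRNA replicate 1) and 0 otherwise. The median log2 fold change of the replication genes ran from 0.0397 (without Rosa26 gRNA replicate 1) to 0.094 (without JunD gRNA replicate 1) with a library left out and was 0.0434 in voom with sample weights, and that of the mitotic genes was 0.0515 after GC and length correction. With 5 libraries, the members called higher were 3 without a count filter (Mcm5, Pcna and Cdc20), 3 after GC and length correction, 2 with the replicate block (Pcna and Cdc20), 2 in voom with sample weights (Mcm5 and Cdc20), and 0 to 2 with a further library left out, 0 without Rosa26 gRNA replicate 2 or 3. The replication median was 0.0279 with upper-quartile factors, 0.0508 with the replicate block, 0.0733 after the correction and 0.0411 to 0.0558 with a library left out. The mitotic median was 0.0278 with the block, 0.0466 after the correction and -0.0041 to 0.033 with a library left out, so its sign is not settled. The replication median stayed above the mitotic one in every setting. Within the 150 bases nearest the start, E2F letters were in 4 of 12 replication and 0 of 16 mitotic genes, and CHR letters in 1 and 11. The difference in mean replication level was 0.0592, and 0.0434 with scaling to total counts. The correlations of the deviations of same-numbered libraries from their group means were 0.0555, -0.0393 and 0.0742. The control mean includes Rosa26 gRNA replicate 1, so these values cannot show whether same-numbered libraries were handled together. The labels give them only a shared number.

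Among the 38 members the sign changed at least once in 11 with 6 libraries (16 of 608 values) and in 14 with 5 (42 of 570). With the replicate block on 5 libraries Pold2 was also lost (adjusted p = 0.0508). Over all genes, DESeq2 called 20 higher and 47 lower with 6 libraries and voom with sample weights 131 and 162, where edgeR called 0. With 5 libraries and no count filter 498 of 28996 genes were called higher and 372 lower. Voom with sample weights then called 408 of 18296 higher and 412 lower, so these settings called more genes in general. On 5 libraries the replicate block called 475 higher and 357 lower, and with Rosa26 gRNA replicate 2 also left out 16 and 35 were called, in place of 266 and 257. The 5-library fit was itself chosen with earlier results of these data known. Voom with sample weights and the removal of the 10 most abundant genes were, for 5 libraries, chosen after seeing the data. Counting error was small at this depth. The precision differed with the libraries used: 0 of 38 intervals lay inside 1.1-fold with 6 libraries and 14 without Rosa26 gRNA replicate 1, whose counts differed from each other library with a chi-square per degree of freedom of 121 to 173, against 3.27 to 16.9 among the other 5.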
